A study of Danio rerio with 14 samples.

Results

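The p53 target genes and the gadd45 family were followed in zebrafish larvae raised in saline with reconstituted wastewater effluent, and in solvent controls. The set was listed by gene name, with earlier results of these data known. It holds the p53 targets mdm2, cdkn1a, ccng1, bbc3 and sesn1, and the zebrafish alpha and beta gadd45 genes gadd45aa, gadd45ab, gadd45ba and gadd45bb. Of these 9 genes, 8 were measured, by 19 probes among the 38807 probes kept and among the 12811 genes with a symbol. No probe was matched to cdkn1a, which is therefore not analysed here. All 19 probes were well above background on all 14 arrays, so none of the measured genes was lost to a filter on dim signal. Probe sequences were not used here, so it was not tested whether a probe also binds a paralogue.

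The transcription factor p53 is held at a low level by Mdm2, which marks it for degradation, and it is released when DNA is damaged or a cell is stressed. It then switches on genes that stop the cell cycle, repair DNA, restrain growth or kill the cell, and mdm2 itself is among them, which closes a feedback loop. The gadd45 genes encode small acidic proteins without enzymatic activity that bind PCNA, cyclin-dependent kinases and a kinase upstream of p38 and JNK; in mammals Gadd45a is a p53 target, while Gadd45b is better known for its response to NF-kappaB and TGF-beta. The final letters mark zebrafish paralogues (gadd45aa and gadd45ab, gadd45ba and gadd45bb).

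RNA came from whole larvae of the wild-type AB strain at 5 days of age, hybridised to 1-colour Agilent arrays. Exposure started 3 h after fertilisation, and the groups were a solvent control (0.05% DMSO in the embryo saline E3, 4 arrays) and secondary effluent of a Tucson treatment plant, reconstituted in the same saline with at most 0.05% DMSO, at 0.5x (5 arrays) and at its original strength, 1x (5 arrays). One replicate was the pool of the 25 to 30 embryos of 1 well, so each p-value rests on the spread between wells. In the main fit that spread includes differences between array slides and scan days. The labels do not say whether wells shared a clutch. In pooled whole larvae, fewer cells of a type and less RNA per cell cannot be told apart.

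Between 85.4% and 90.9% of the probes on an array were well above background, with median processed signals of 131 to 254. Control replicate 1 was the lowest array in both. The 75th percentile of the processed signal was 639 to 958 in controls, 744 to 1359 at 0.5x and 968 to 1342 at 1x. Every 1x array was thus brighter than every control array by this measure. On the first principal component (38.1% of the variance), control replicate 1 lay at -120 and control replicate 2 at -80.5, away from the other 12 arrays between -17.5 and 44.5. The arrays lay on 4 slides scanned on 2 days: slides 1 and 2 (day 1) held control replicates 1 and 2, 0.5x replicate 1 and 1x replicates 1 to 3, and slides 3 and 4 (day 2) the rest. Values below are log2 signals relative to the 75th percentile of the array, for the brightest probe of a gene unless another is named. They compare arrays for 1 probe and do not rank genes by level.

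At 1x, 4 gadd45 genes and mdm2 were higher than in controls and sesn1 was lower. These 6 of the 8 measured genes passed limma's test at an adjusted p of 0.05, against a background of 26.6% of all genes (10.3% higher and 16.2% lower). At 0.5x, 3 of 8 passed, all of them higher (gadd45aa, gadd45ab and gadd45bb), against 8.68% of all genes (4.38% higher and 4.3% lower). Between the concentrations 2 of 8 passed, both lower at 1x than at 0.5x (bbc3 and sesn1), against 4.32% of all genes (1.67% higher and 2.65% lower). The median log2 fold change of the 8 genes was 0.45 at 1x against control, 0.30 at 0.5x against control and -0.08 at 1x against 0.5x, beside -0.05, -0.04 and -0.02 over all genes. The comparisons at 1x and 0.5x share their controls. Since the set was chosen with earlier results of these data known, its shares beside all genes describe it and are no test of it.

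**Figure D1:**
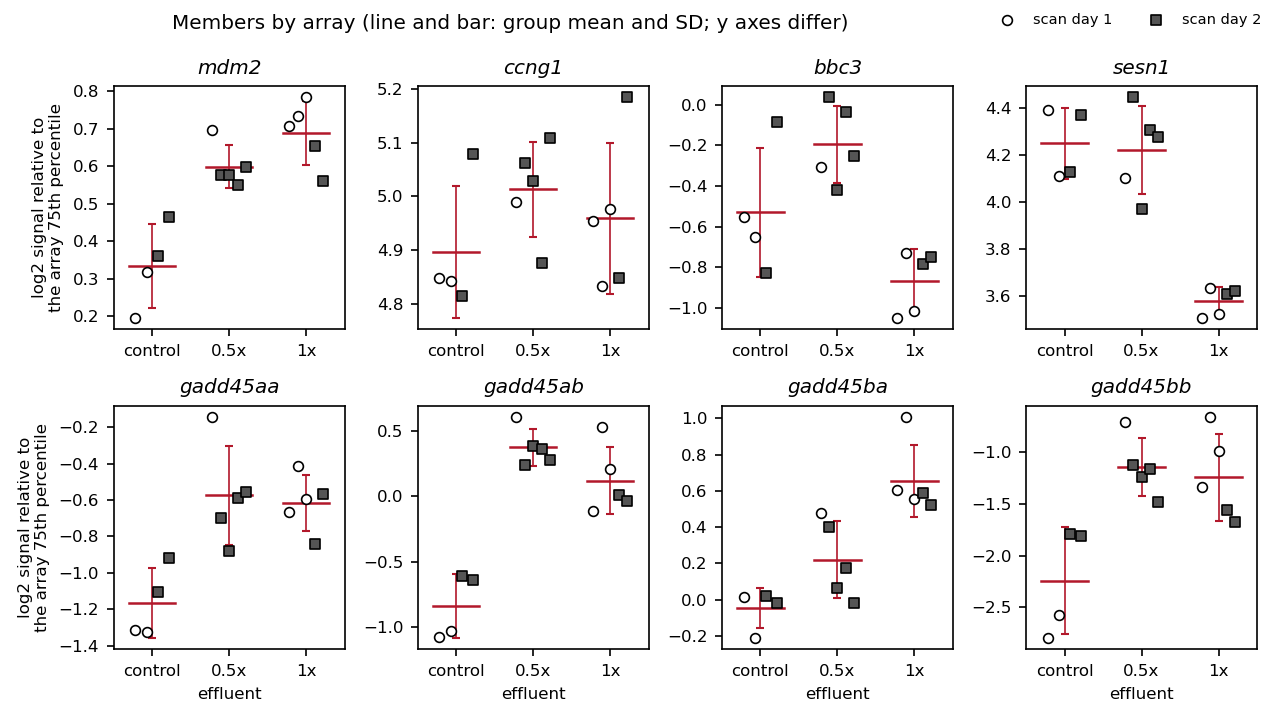
Log2 signal relative to the array 75th percentile (y axis, a separate scale per gene) of the 8 measured genes in control, 0.5x and 1x larvae (x axis), 1 point per array, open circles for scan day 1 and filled squares for scan day 2, with the group mean and SD in red. All 10 effluent arrays lie above all 4 control arrays for mdm2, gadd45aa, gadd45ab and gadd45bb, and all 5 arrays at 1x lie below all others for sesn1.

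The groups did not overlap for 6 of 8 genes at 1x against control (5 higher and 1 lower, against 20.3% of all genes, 7.99% higher and 12.3% lower). This held for 4 of 8 genes at 0.5x against control, all higher (10.9% of all genes, 4.96% higher and 5.97% lower), and for 3 of 8 genes at 1x against 0.5x (1 higher and 2 lower, 10.2% of all genes, 4.46% higher and 5.73% lower). Over all 19 probes, 8 rose and 3 fell at 1x against control (background 28.7% of probes, 9.88% higher and 18.8% lower), 4 rose at 0.5x against control (9.25%, 3.54% higher and 5.71% lower), and 6 fell at 1x against 0.5x (4.07%, 1.74% higher and 2.34% lower).

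Mdm2, the ubiquitin ligase that degrades p53, was higher at 1x than in controls on the brighter of its 2 probes. Its values there were 0.19, 0.32, 0.36 and 0.47 in control replicates 1 to 4, then 0.70, 0.58, 0.58, 0.55 and 0.60 in 0.5x replicates 1 to 5, and 0.71, 0.73, 0.78, 0.65 and 0.56 in 1x replicates 1 to 5. Every effluent array lay above every control array on this probe, while the concentrations overlapped. At 1x, mdm2 averaged 0.69 ± 0.09 against 0.33 ± 0.11 in controls (SD, n = 5 and 4), a 1.28-fold difference (log2 fold change 0.35, SE 0.09, limma adjusted p = 0.0127). At 0.5x the log2 fold change was 0.26 (95% confidence interval 0.07 to 0.46), with an adjusted p of 0.0727. The 1x arrays exceeded the 0.5x arrays by 0.09 on the log2 scale (interval -0.09 to 0.27, limma adjusted p = 0.543).

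The second mdm2 probe ran the other way, with a log2 fold change of -0.17 at 1x against control (limma adjusted p = 0.311) and of -0.04 at 0.5x (limma adjusted p = 0.843). On it, 1x replicates lay between -0.99 and -0.68 and control replicates between -0.79 and -0.59. With both probes averaged, the mdm2 log2 fold change at 1x was 0.09 and its call was lost (limma adjusted p = 0.406). The call was also lost with normexp background correction (0.27, limma adjusted p = 0.103), within scan day 2 (0.19, limma adjusted p = 0.329) and without control replicates 1 and 2 together (0.28, limma adjusted p = 0.0834). At 0.5x, mdm2 passed without control replicate 4 (0.31, limma adjusted p = 0.0311) and with scan day as a block (0.27, limma adjusted p = 0.0490).

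Ccng1 encodes cyclin G1, a p53 target that brings a phosphatase to Mdm2. Its brightest probe gave 4.85, 4.84, 4.82 and 5.08 in control replicates 1 to 4, 4.99, 5.06, 5.03, 4.88 and 5.11 at 0.5x, and 4.95, 4.83, 4.98, 4.85 and 5.18 at 1x. The 3 groups overlapped, and control replicate 4 was the only control above 4.85. The log2 fold change was 0.06 at 1x against control (interval -0.16 to 0.28, limma adjusted p = 0.668) and 0.12 at 0.5x against control (interval -0.10 to 0.33, limma adjusted p = 0.445).

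The other 3 ccng1 probes did not pass either. Their log2 fold changes at 1x against control were 0.07, 0.50 and 0.83, with limma adjusted p-values of 0.585, 0.125 and 0.0806. On the probe with the widest difference, ccng1 stood at 1.70, 1.37, 1.59, 0.60 and 0.42 in 1x replicates 1 to 5 and at 0.29, 0.79, 0.39 and -0.24 in control replicates 1 to 4. The 3 high 1x arrays were those scanned on day 1, and 0.5x replicate 1, also of day 1, stood at 1.60 while the other 4 arrays at 0.5x lay between -0.01 and 0.38.

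Bbc3 encodes Puma, a BH3-only protein that starts mitochondrial apoptosis. It gave -0.55, -0.65, -0.83 and -0.09 in control replicates 1 to 4, -0.31, 0.04, -0.42, -0.03 and -0.25 at 0.5x, and -1.05, -0.73, -1.01, -0.78 and -0.75 at 1x. All 1x arrays lay below all 0.5x arrays, with the controls spread across both. Against 0.5x, bbc3 fell by 0.67 on the log2 scale at 1x (SE 0.14, limma adjusted p = 0.0170), a level 1.59-fold lower. Both other bbc3 probes also fell at 1x against 0.5x, by 0.85 (limma adjusted p = 0.0402) and by 0.65 (limma adjusted p = 0.0139). The probe with the fall of 0.85 was dim (processed signal 18.6 to 52.9), and its 1x and 0.5x arrays overlapped.

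Against the controls, bbc3 lay on opposite sides at the 2 concentrations without passing the test at either. The log2 fold change was -0.34 at 1x against control (interval -0.66 to -0.02, limma adjusted p = 0.101) and 0.33 at 0.5x against control (interval 0.01 to 0.65, limma adjusted p = 0.147). The bbc3 calls changed with the setting and with single arrays. The fall at 1x against 0.5x was lost with slide as a block (-0.56, limma adjusted p = 0.126) and in the deposited matrix (-0.33, limma adjusted p = 0.458). In the matrix 0 of 36346 probes passed in limma at 1x against 0.5x, so that loss is not particular to bbc3. The bbc3 fall also missed the threshold without 1x replicate 3 (-0.63, limma adjusted p = 0.0516), without 0.5x replicate 2 (-0.61, limma adjusted p = 0.0521) and without 0.5x replicate 4 (-0.63, limma adjusted p = 0.0538). Without control replicate 3 bbc3 passed at 1x against control (-0.44, limma adjusted p = 0.0444), as it did with its probes averaged (-0.43, limma adjusted p = 0.0315). Without control replicate 4 it passed at 0.5x against control (0.48, limma adjusted p = 0.0217).

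Sesn1 encodes Sestrin 1, which restrains the growth kinase complex mTORC1 and is a target of FoxO factors as well as of p53. Its values were 4.39, 4.11, 4.13 and 4.37 in control replicates 1 to 4, 4.10, 4.45, 3.97, 4.31 and 4.28 at 0.5x, and 3.51, 3.64, 3.53, 3.61 and 3.62 at 1x. The lowest array at 0.5x or in the controls stood 0.34 above the highest array at 1x. At 1x sesn1 averaged 3.58 ± 0.06 against 4.25 ± 0.15 in controls (SD, n = 5 and 4), a fall by 0.67 on the log2 scale (SE 0.11, limma adjusted p = 0.00176). Relative to 0.5x it fell by 0.64 (SE 0.11, limma adjusted p = 0.00386). Both falls are relative to the array 75th percentile, which was higher on every 1x array than on every control array. Before that scaling, sesn1 processed signals overlapped, at 13495 to 18146 in controls, 14522 to 23425 at 0.5x and 11959 to 16165 at 1x. Signals without scaling were not tested.

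The other 2 sesn1 probes fell alike at 1x against control, by 0.78 (limma adjusted p = 0.00465) and by 0.77 (limma adjusted p = 0.00488), and their 1x arrays also lay below all others. At 0.5x against control the 3 sesn1 probes gave log2 fold changes of -0.03, 0.05 and 0.13, none past the test, and the interval for the brightest was -0.27 to 0.21. No single array decided the sesn1 calls at 1x, but in the deposited matrix the call at 1x against 0.5x was lost (-0.45, limma adjusted p = 0.334). None of the 36346 probes of the matrix passed in that comparison.

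**Figure D2:**
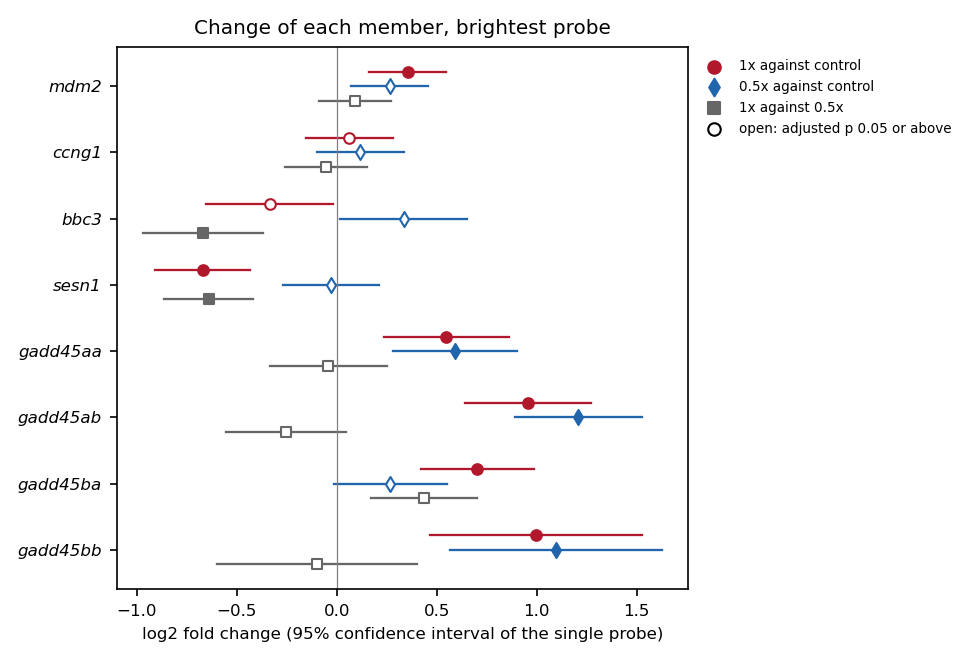
Log2 fold change (x axis) of the brightest probe of each gene (rows) at 1x against control (red circles), 0.5x against control (blue diamonds) and 1x against 0.5x (grey squares), with 95% confidence intervals of the single probe and filled points for a limma adjusted p under 0.05. The 4 gadd45 genes and mdm2 are filled to the right of 0 at 1x against control, and sesn1 is filled to the left at 1x against both other groups.

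Gadd45ab rose at both concentrations, in each with the smallest adjusted p among the gadd45 genes. It stood at -1.07, -1.03, -0.61 and -0.64 in control replicates 1 to 4, 0.60, 0.24, 0.38, 0.36 and 0.28 at 0.5x, and -0.12, 0.53, 0.20, 0.01 and -0.03 at 1x. Neither concentration overlapped with the controls. The rise was 1.94-fold at 1x (log2 fold change 0.96, SE 0.15, limma adjusted p = 0.00124) and 2.31-fold at 0.5x (1.21, SE 0.15, limma adjusted p = 0.000456). Its second probe gave 1.15 (limma adjusted p = 0.00228) at 1x and 1.29 (limma adjusted p = 0.00236) at 0.5x. The difference of 1x less 0.5x was -0.25 (interval -0.55 to 0.04, limma adjusted p = 0.295). Gadd45ab passed against control in all 27 alternative settings at both concentrations, with log2 fold changes of 0.61 to 1.25 at 1x and 0.94 to 1.65 at 0.5x.

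Its paralogue gadd45aa rose less. Values of -1.31, -1.32, -1.11 and -0.92 in control replicates 1 to 4 stood beside -0.14, -0.70, -0.88, -0.59 and -0.56 at 0.5x and -0.66, -0.42, -0.60, -0.84 and -0.57 at 1x. The nearest arrays, 0.5x replicate 3 and control replicate 4, were 0.04 apart, so the groups were separate by little. Gadd45aa was 1.46-fold higher at 1x than in controls (log2 fold change 0.55, SE 0.15, limma adjusted p = 0.0154) and 1.51-fold higher at 0.5x (0.59, SE 0.15, limma adjusted p = 0.0257). The second probe passed at 1x (0.63, limma adjusted p = 0.00972), and at 0.5x it gave 0.44 with an adjusted p of 0.0701. The call at 0.5x was lost without control replicate 1 (0.54, limma adjusted p = 0.0827), without control replicate 2 (0.54, limma adjusted p = 0.0878) and without 0.5x replicate 4 (0.59, limma adjusted p = 0.0521). It was lost as well with slide as a block (0.57, limma adjusted p = 0.0506), in the deposited matrix (0.49, limma adjusted p = 0.0607) and with only the 0.5x and control arrays fitted (0.59, limma adjusted p = 0.0779). Without both control replicates 1 and 2, gadd45aa passed at neither concentration (0.39 at 1x, limma adjusted p = 0.137, and 0.44 at 0.5x, limma adjusted p = 0.266).

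Gadd45ba was higher at 1x. It gave 0.01, -0.21, 0.02 and -0.02 in control replicates 1 to 4, 0.48, 0.40, 0.07, 0.18 and -0.02 at 0.5x, and 0.61, 1.01, 0.56, 0.59 and 0.52 at 1x. All 1x arrays lay above all others, whereas 0.5x replicate 5 lay within the controls. The rise at 1x was 1.63-fold against control (log2 fold change 0.70, SE 0.13, limma adjusted p = 0.00331), and the second probe gave 1.00 (limma adjusted p = 0.00418). At 0.5x gadd45ba gave a log2 fold change of 0.27 (interval -0.01 to 0.55, limma adjusted p = 0.179) and 0.61 on its second probe (limma adjusted p = 0.0622). The 1x arrays exceeded the 0.5x arrays by 0.44 (interval 0.17 to 0.70), at an adjusted p of 0.0640, which became 0.0248 without 0.5x replicate 1 (0.50).

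Gadd45bb, measured by 1 probe, varied most among the controls (SD 0.52 of the log2 values). It stood at -2.80, -2.57, -1.79 and -1.81 in control replicates 1 to 4, -0.71, -1.12, -1.24, -1.17 and -1.48 at 0.5x, and -1.34, -0.66, -0.99, -1.56 and -1.68 at 1x. The groups did not overlap, but 1x replicate 5 and control replicate 3 were 0.12 apart, and control replicates 1 and 2 were the lowest arrays. Gadd45bb was 2.00-fold higher at 1x than in controls (log2 fold change 1.00, SE 0.25, limma adjusted p = 0.0119) and 2.14-fold higher at 0.5x (SE 0.25 on the log2 scale, limma adjusted p = 0.0181). Without control replicates 1 and 2 the log2 fold change of gadd45bb was 0.56 at 1x (limma adjusted p = 0.148) and 0.66 at 0.5x (limma adjusted p = 0.250). Leaving out control replicate 1 alone (0.91, limma adjusted p = 0.0653) or control replicate 2 alone (0.99, limma adjusted p = 0.0688) also ended its call at 0.5x, as did the deposited matrix (0.87, limma adjusted p = 0.0610).

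**Figure D3:**
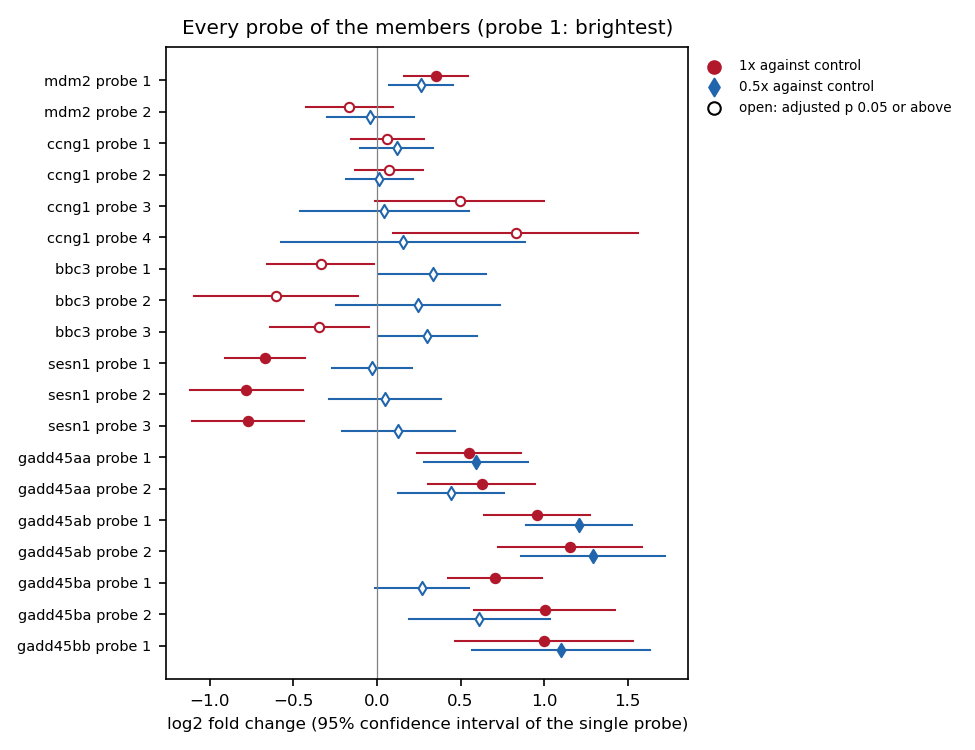
Log2 fold change (x axis, 95% confidence interval of the single probe) of all 19 probes (rows, probe 1 of each gene being its brightest) at 1x against control (red circles) and at 0.5x against control (blue diamonds), filled for a limma adjusted p under 0.05. The 3 sesn1 probes lie together left of 0 at 1x and the 7 gadd45 probes right of 0, while the mdm2 probes lie on opposite sides.

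Each scan day and 3 of the 4 slides held control and 1x arrays, so the differences were also taken within them. At 1x against control, sesn1 differed by -0.69 within day 1 and by -0.64 within day 2, and gadd45ba by 0.82 and 0.55. Gadd45ab differed by 1.25 within day 1 and by 0.61 within day 2, gadd45aa by 0.76 and 0.31, and mdm2 by 0.49 and 0.19. Gadd45bb differed by 1.69 within day 1 and by 0.18 within day 2. These 6 genes kept their sign within each day and each slide. With slide as a block, 6 members passed at 1x against control (34.5% of all genes), 2 at 0.5x against control (6.49%) and 1 at 1x against 0.5x (1.89%). With scan day as a block these were 6 (36.7%), 4 (12.2%) and 2 (4.47%).

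For gadd45bb the difference from the controls was larger on day 1 than on day 2. The day 1 controls were control replicates 1 and 2, the arrays that stood apart. Among the controls, scan day and these 2 arrays therefore cannot be told apart. The gadd45bb mean in controls was -2.68 on day 1 and -1.80 on day 2. The effluent arrays differed by day as well, with means of -0.995 and -1.62 at 1x. At 0.5x they were -0.71 (1 array) and -1.25. The cause was not tested. At 0.5x, day 1 held 1 array (replicate 1), so each day 1 value at 0.5x rests on that array, which is assumed to vary like the others. The day 1 effect less the day 2 effect was 1.51 at 1x against control (SE 0.26, limma adjusted p = 0.00483) and 1.43 at 0.5x against control (SE 0.29, limma adjusted p = 0.0116). For gadd45aa it was 0.85 at 0.5x (SE 0.22, limma adjusted p = 0.0256) and 0.45 at 1x (limma adjusted p = 0.129). The other members did not pass this test, gadd45ab coming nearest with 0.64 at 1x (limma adjusted p = 0.0724) and 0.71 at 0.5x (limma adjusted p = 0.0637), and it was passed by 6085 of 38807 probes at 1x and 7211 at 0.5x. Within day 1 alone, 6 of 8 genes passed at 1x against control (44.2% of all genes) and 3 at 0.5x against control (27.7%), the 0.5x group there being that 1 array. Within day 2 alone, with 2 arrays each of control and 1x, gadd45ab passed in both comparisons and no other member did (4.15% of all genes at 1x, 2.17% at 0.5x). At 1x against 0.5x no member passed in limma within day 1 (0% of all genes) or within day 2 (2.73%), with 3 and 5 members at an unadjusted p under 0.05. There bbc3 gave -0.62 within day 1 and -0.60 within day 2, and sesn1 -0.54 and -0.64.

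**Figure D4:**
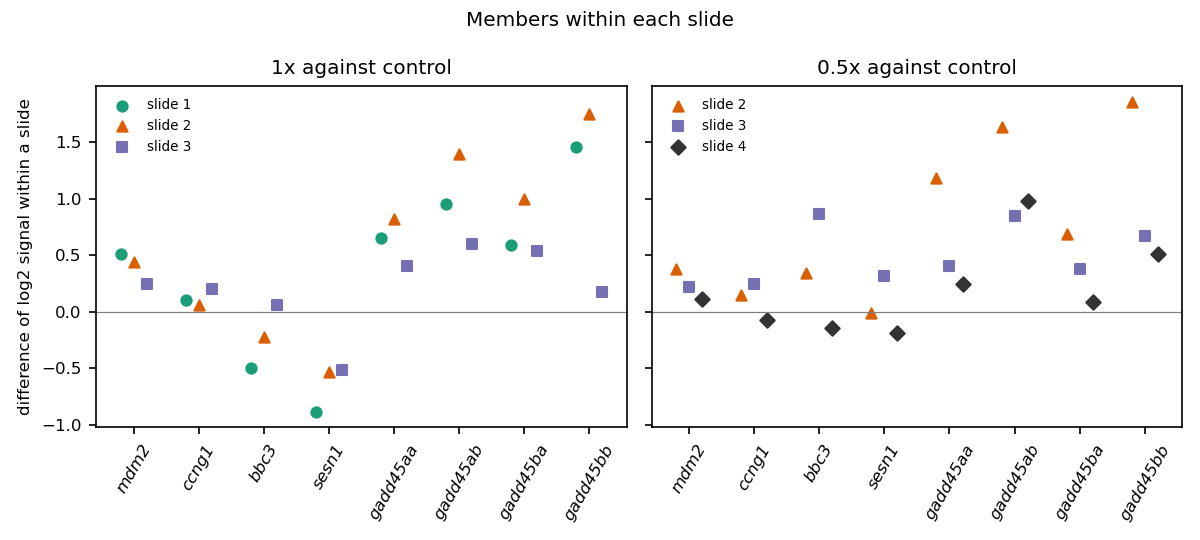
Difference of the mean log2 signal within a slide (y axis) for each gene (x axis), at 1x against control on slides 1 to 3 (left) and at 0.5x against control on slides 2 to 4 (right), 1 point per slide and no error bars, since most group means within a slide rest on 1 array. Sesn1 lies below 0 on all 3 slides at 1x (-0.88, -0.53 and -0.51), and gadd45bb lies at 1.46 and 1.75 on slides 1 and 2 but at 0.17 on slide 3.

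Markers of liver, pancreas, gut, lens and erythrocytes were lowest in the 2 control arrays that stood apart, and neuron markers were highest there. Relative to each gene's mean over all arrays, on the log2 scale, the 8 measured hepatocyte markers (of 10) averaged -1.88, -1.12, 0.05 and 0.81 in control replicates 1 to 4, 0.27 to 0.34 at 0.5x and 0.04 to 0.18 at 1x. The 11 exocrine pancreas markers averaged -2.65, -1.81, 0.76 and 1.17 in control replicates 1 to 4, 0.33 to 0.92 at 0.5x and -0.38 to 0.36 at 1x. For the 8 enterocyte markers the control values were -1.08, -0.70, 0.09 and 0.07, with 0.15 to 0.33 at 0.5x and 0.02 to 0.18 at 1x. Erythrocyte markers (5 of 6) ran from -0.99 to -0.16 in controls, 0.01 to 0.19 at 0.5x and 0.09 to 0.60 at 1x, and proliferation markers (12 of 13) from -0.34 to -0.01 in controls, -0.18 to 0.12 at 0.5x and 0.14 to 0.20 at 1x. The 7 lens markers ran from -1.17 to 0.42 in controls, 0.06 to 0.40 at 0.5x and -0.13 to 0.12 at 1x. Neuron markers (7 of 8) ran from -0.13 to 0.62, -0.25 to 0.16 and -0.31 to -0.03, and the 8 muscle markers from -0.02 to 0.26, -0.15 to 0.07 and -0.14 to 0.07, in the same order of groups. All measured markers were well above background on all arrays, and their part in the changes of gadd45bb, gadd45aa and mdm2 was not tested. Without control replicates 1 and 2, 3 of 8 members passed at 1x against control (gadd45ab, gadd45ba and sesn1, against 11.4% of all genes), and 1 at 0.5x against control (gadd45ab, against 1.75%).

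The mdm2 relative mdm4 and the gamma gadd45 genes did not pass the test in either comparison with the controls. Mdm4, the Mdm2 partner that blocks p53 activity, gave a log2 fold change of 0.03 at 1x (limma adjusted p = 0.814) and -0.09 at 0.5x (limma adjusted p = 0.535). The gamma genes gadd45ga and gadd45gb.1 gave -0.10 and -0.37 at 1x (limma adjusted p = 0.549 and 0.151) and 0.28 and -0.41 at 0.5x (limma adjusted p = 0.117 and 0.158). Gadd45gb.1 passed, with a fall, in both comparisons without control replicate 3 (-0.57 with limma adjusted p = 0.0225 at 1x and -0.61 with 0.0315 at 0.5x). Without control replicates 1 and 2 gadd45gb.1 had the opposite sign, at 0.09 (1x) and 0.05 (0.5x).

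Among 11 measured regulators of p53 and kinases of the damage response (14 listed), 2 rose and 2 fell at 1x against control, with a list median of 0.18. For this list and those below, the background was 26.6% of all genes passing at 1x against control and 8.68% at 0.5x. Tp53rk, a p53-phosphorylating kinase that also modifies tRNA, rose at 1x by 1.44 (SE 0.18, limma adjusted p = 0.000408) and at 0.5x by 0.99 (limma adjusted p = 0.00622). The second tp53rk probe passed at 1x (0.79, limma adjusted p = 0.0164) but not at 0.5x (0.24, limma adjusted p = 0.461). Chek1, the checkpoint kinase downstream of ATR, rose by 0.67 at 1x (limma adjusted p = 0.0278). Cop1, a ubiquitin ligase for p53 in mammals, and tp53bp1, which marks DNA breaks, fell by 0.59 and 0.36 (limma adjusted p = 0.0336 and 0.0355). The call of chek1 ended when any of control replicates 3 and 4 and 1x replicates 1 to 3 was left out (limma adjusted p up to 0.0669). Those of cop1 and tp53bp1 ended on leaving out any of control replicates 1 and 2 and 1x replicates 1 to 3 (limma adjusted p up to 0.109 and 0.103). At 0.5x, 1 of the 11 rose and 1 fell.

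Of 31 other p53 target genes measured (42 listed), 4 rose and 6 fell at 1x against control (median 0.07, with 26.6% of all genes passing). At 0.5x, 2 rose and 2 fell (8.68% of all genes). Ddit4, an inhibitor of mTORC1, rose by 1.31 at 1x (SE 0.19, limma adjusted p = 0.000939) and by 1.84 at 0.5x (limma adjusted p = 0.000149). Btg2, an antiproliferative gene, rose by 0.73 (limma adjusted p = 0.00780), and baxa, a Bax protein of the mitochondrial death pathway, by 0.34 at 1x (limma adjusted p = 0.0121). The second baxa probe gave -0.20 (limma adjusted p = 0.355), and the baxa call was lost with both probes averaged (0.07, limma adjusted p = 0.665) and within each scan day (limma adjusted p = 0.0618 and 0.106). Xpc, which recognises damage in nucleotide excision repair, fell by 0.82 (SE 0.16, limma adjusted p = 0.00443), and ei24 fell by 0.66 (SE 0.12, limma adjusted p = 0.00220). Their second probes did not pass, at -0.15 for xpc (limma adjusted p = 0.630) and -0.22 for ei24 (limma adjusted p = 0.170). Both calls held with the probes averaged. Without control replicates 1 and 2 the calls of btg2 (0.59, limma adjusted p = 0.0770) and xpc (-0.68, limma adjusted p = 0.0502) ended.

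Among 13 measured gamma gadd45 genes and binding or signalling partners (20 listed), 1 rose and 2 fell at 1x against control (median -0.15, with 26.6% of all genes passing). Pcna, the replication clamp that Gadd45 proteins bind, rose by 0.64 (SE 0.15, limma adjusted p = 0.00863). The stress kinases map2k4a and mapk11 fell by 0.34 and 0.41 (limma adjusted p = 0.0142 and 0.0397). The mapk11 call ended without any of 9 arrays (control replicates 1 and 2, 1x replicates 2 to 5, 0.5x replicates 2 to 4, limma adjusted p up to 0.134). At 0.5x 1 of the 13 fell (mapk11, by 0.60, limma adjusted p = 0.0193, with the call lost without control replicate 1 or 2 at up to 0.0733) and none rose in limma, with 2 higher at an unadjusted p under 0.05.

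Of 22 BCL2 family and caspase genes (26 listed), 1 rose and 3 fell at 1x against control (median 0.06, with 26.6% of all genes passing). Bmf2, a BH3-only gene like bbc3, fell by 0.93 at 1x (SE 0.18, limma adjusted p = 0.00357) and by 1.04 at 0.5x (limma adjusted p = 0.00407). Bokb and casp9, the initiator caspase of the mitochondrial pathway, fell by 0.32 and 0.47 (limma adjusted p = 0.0316 and 0.0377), and baxa, on 1 of its 2 probes, was the 1 that rose. With the probes of each gene averaged, 2 genes of the list passed, both lower. The bokb call needed each of control replicates 1 and 2 and 1x replicates 1 to 3 (limma adjusted p up to 0.0751), and the casp9 call each of control replicates 3 and 4 and 1x replicates 1 to 3 (limma adjusted p up to 0.0929). At 0.5x, 2 rose and 1 fell.

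Among 17 measured G1 cyclins, cyclin-dependent kinases and their inhibitors (21 listed), 1 rose and 2 fell at 1x (median -0.05). As many rose and fell at 0.5x, but none of the genes that passed at 1x passed there. The shares of all genes that passed were 26.6% at 1x and 8.68% at 0.5x. The G1 kinase cdk2 rose by 0.39 (limma adjusted p = 0.0437), the inhibitor cdkn2c fell by 0.34 (limma adjusted p = 0.0215) and the D-type cyclin ccnd2a fell by 0.43 (limma adjusted p = 0.0414). The cdkn2c call ended without control replicate 1 or 1x replicate 3 (limma adjusted p up to 0.0615). Leaving out any of control replicates 2 to 4, 1x replicates 1, 4 and 5, and 0.5x replicates 2, 4 and 5 ended that of cdk2 (limma adjusted p up to 0.104). Leaving out any of control replicates 1, 2 and 4, all 1x replicates, and 0.5x replicates 2 and 4 ended that of ccnd2a (limma adjusted p up to 0.123).

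In the sestrin and mTORC1 pathway, 2 of 18 measured genes rose and 3 fell at 1x against control (25 listed, median -0.02, with 26.6% of all genes passing). Beside ddit4, which is also in this list, sec13 of the GATOR2 complex rose by 0.42 (limma adjusted p = 0.0233). Castor2, an arginine sensor homologue, fell by 0.51 at 1x against control (SE 0.10, limma adjusted p = 0.00486) and by 0.43 at 1x against 0.5x (limma adjusted p = 0.0258). The castor2 call against 0.5x ended without any of 1x replicates 1 to 3 and 0.5x replicates 2, 4 and 5 (limma adjusted p up to 0.0819), with slide as a block (limma adjusted p = 0.109) and in the deposited matrix (limma adjusted p = 0.350). No probe of the matrix passed in that comparison. Rheb, the GTPase that activates mTORC1, fell by 0.52 (limma adjusted p = 0.00825), and tsc1a, of the complex that restrains Rheb, by 0.34 (limma adjusted p = 0.0181). The tsc1a call ended without control replicate 1 (limma adjusted p = 0.0580), and the sec13 call without control replicate 4 or 1x replicate 3 (limma adjusted p up to 0.0619).

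All 15 listed stress-response transcription factors and immediate early genes were measured. Of these, 6 rose and 2 fell at 1x against control (median 0.34, with 26.6% of all genes passing), and 3 rose and 1 fell at 0.5x (8.68%). Fosab, a component of AP-1, rose by 1.35 at 1x (SE 0.20, limma adjusted p = 0.000938) and egr1, an immediate early gene, by 1.03 (SE 0.13, limma adjusted p = 0.000511). Klf9, a glucocorticoid-responsive factor, rose by 1.01 at 1x (SE 0.14, limma adjusted p = 0.000765) and by 2.28 at 0.5x (limma adjusted p = 2.55e-06). Rela, the p65 subunit of NF-kappaB, fell by 1.66 at 1x (SE 0.18, limma adjusted p = 0.000130), on a dim probe that was well above background on 4 of the 5 arrays at 1x and is dropped where all arrays must be. The second rela probe gave -0.51 (limma adjusted p = 0.0889). Atf4a, of the integrated stress response, fell by 0.49 at 1x (limma adjusted p = 0.00694). Egr1 lost its call with normexp background correction (0.04), and atf4a without control replicates 1 and 2 (limma adjusted p = 0.0609) and with its probes averaged (-0.12, limma adjusted p = 0.276), its second probe giving 0.25 (limma adjusted p = 0.171).

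**Figure D5:**
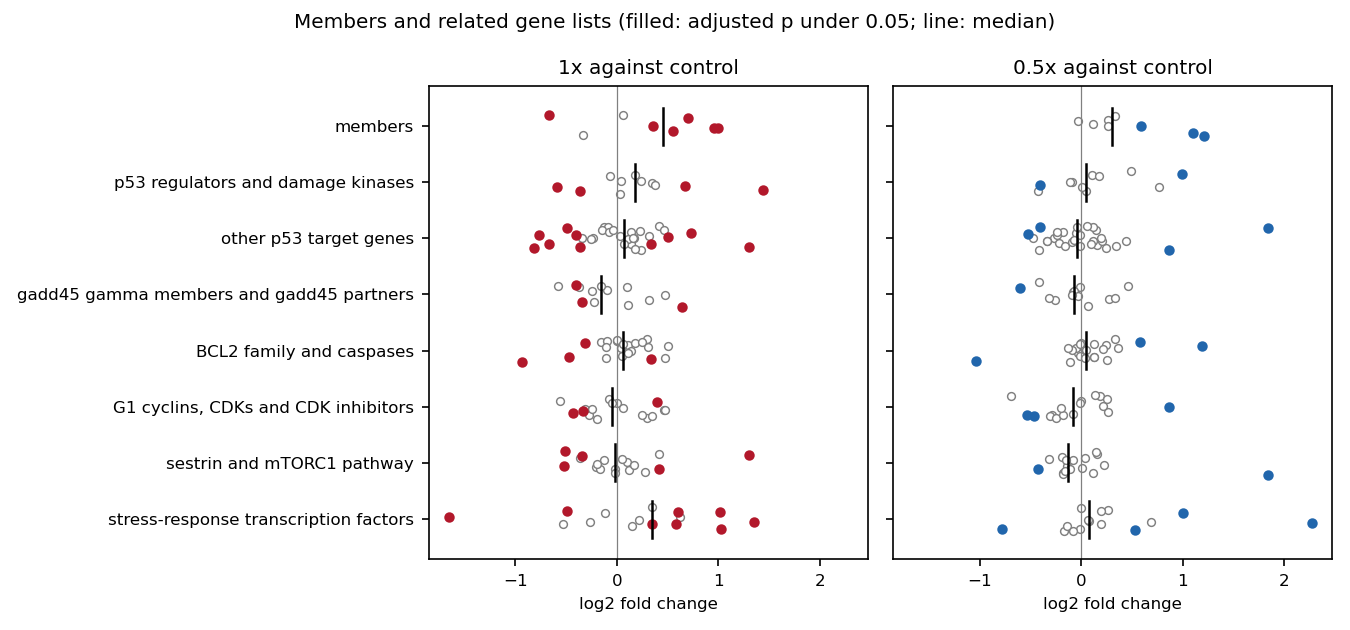
Log2 fold change (x axis) of the 8 members and of the measured genes of 7 related lists (rows), at 1x against control (left) and 0.5x against control (right), 1 point per gene by its brightest probe, filled for a limma adjusted p under 0.05, with a black line at the median. Filled points lie on both sides of 0 in each related list at 1x, and the vertical scatter within a row carries no value.

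The lists changed with the control arrays that stood apart. Without control replicates 1 and 2, those that rose and fell at 1x against control numbered 2 and 0 among the regulators in limma, 4 and 1 among the other p53 targets, 3 and 0 among the gadd45 partners, and 2 and 2 in the BCL2 family. In the same comparison they numbered 1 and 0 among G1 genes, 1 and 1 in the sestrin pathway, and 3 and 1 among the stress factors. Over all genes, 11.4% passed in that fit. Beside btg2, xpc and atf4a, the named genes that no longer passed were cop1, tp53bp1, map2k4a, mapk11, bokb, cdkn2c, ccnd2a, cdk2, rheb, tsc1a and sec13. At 0.5x against control, tp53rk, mapk11, bmf2, ei24, rela and tp53bp1 no longer passed. With probes averaged, the calls of cop1, bokb and tsc1a at 1x against control also ended, and with normexp those of chek1, mapk11, ccnd2a and tsc1a. Within scan day 2, the named genes that passed at 1x against control were tp53rk, ei24, btg2, pcna, cdk2, rela, egr1, klf9 and fosab.

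For each member, the genes with the most similar profile were found by Pearson correlation over the 14 arrays, among 12809 other genes with a symbol. Arrays share slides and scan days, and control replicates 1 and 2 weigh on every such value, so these are descriptions. Sesn1 was followed most closely by pik3ip1 (0.97), txlnbb (0.97) and ndel1b (0.96), and mdm2 by bco1l (0.97), cyb5r2 (0.97) and abhd14b (0.97). Gadd45ab lay nearest to tdo2a (0.98), mylipb (0.95) and slc52a3-1 (0.95), and gadd45bb to cyp7a1 (0.97), tnni1b (0.96) and cpo (0.96). The nearest genes to gadd45aa were ppl (0.90), cyp46a1.2 (0.90) and noc4l (0.90). Gadd45ba came nearest to si:dkey-83f18.3 (0.94), si:dkey-88n24.8 (0.93) and si:dkey-88n24.9 (0.93). Among the 3 genes most like bbc3 were znf511 (0.93) and id2b (0.93), and ccng1 was most like pfdn6 (0.90), mrps24 (0.90) and exosc5 (0.85). No member was among the 3 nearest genes of another, but some members had similar profiles. Correlations between members ran from -0.71 (sesn1 and gadd45ba) to 0.94 (gadd45ab and gadd45bb). Gadd45bb correlated at 0.89 with mdm2 and with gadd45aa, gadd45aa at 0.89 with gadd45ab, and bbc3 at 0.83 with sesn1. Ccng1 lay between -0.02 (gadd45ba) and 0.39 (gadd45aa) with the other members.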

How the data were processed

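The authors deposited the output of Agilent Feature Extraction 10.7 for each array, whose processed signal is a linear intensity corrected for background and spatial trends, per the file headers. The authors also deposited a log2 matrix of 36346 probes. How it was made no label records. On 3 slides it matched (r = 1.00) the scaled values centred on the slide median, and on slide 1 at 0.872 and 0.901, where the centring stays unknown. Such centring removes slide differences. It can also remove part of the group differences, since slide 1 held no 0.5x array and slide 4 no 1x array. The column medians of the matrix ran from -0.0662 to 0.110. The matrix was an alternative only.

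From 43803 non-control spots (43603 probes) per array, 73 spots over 14 arrays that the software called outliers were dropped and repeat spots averaged; none was saturated. Each array's 75th percentile was subtracted from its log2 intensity. Limma 3.58.1 (lmFit and eBayes, R 4.3.3) was fitted to all 14 arrays with no block. P-values were adjusted by Benjamini-Hochberg over 38807 probes, those well above background on 4 or more arrays of any group, with a threshold of 0.05. Precision is limited by the number of arrays, the median standard error being 0.164 against control and 0.154 between concentrations. A gene is represented by its kept probe with the highest mean. Names come from the RefSeq table of the GRCz12tu assembly. On data simulated for 1x against control over 43603 probes, 169 of 200 changed probes were recovered. Recovery at log2 fold changes of the size seen in the members was not tested.

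Named are the members, mdm4, gadd45ga and gadd45gb.1, in each list up to 5 genes with the smallest adjusted p at 1x, and the 3 genes most like each member; 2 genes that this rule gives are not reported here. The members and lists were chosen with earlier results of these data known. Normexp used the median foreground signal in place of the mean. The labels give no pairing of wells by replicate number. The alternatives were the normexp and quantile settings, the filter on dim probes, blocks, single scan days, each array left out, probe averages, the matrix and fits of 2 groups. Fits without control replicates 1 and 2, and the test of scan days against each other, were added after seeing the data.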

Additional observations from a re-analysis of the deposited data

Results flagged for a closer look

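A single array stood far from the rest of its group in 3 of the 24 groups of arrays checked (8 genes in 3 groups), and chance alone gives about 1 in 20. Control replicate 4 had a ccng1 value of 5.08, with the other controls at 4.82 to 4.85. Control replicate 2 had a gadd45ba value of -0.21, with the other controls at -0.02 to 0.02. At 1x, replicate 2 had a gadd45ba value of 1.01, with the other 4 arrays at 0.52 to 0.61.

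The effect of the effluent differed between the concentrations for 2 genes in limma's direct test. The effect at 1x less the effect at 0.5x was -0.67 for bbc3 and -0.64 for sesn1, and since both effects share the controls this is the difference of 1x and 0.5x given above.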

How the results depend on the processing

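No member's call changed direction: of 295 values under other settings of a result that passed, 261 passed too and 34 did not. The count of members past the threshold at 1x against control (6) was 5 with normexp and 1 within scan day 2. It was 3 without control replicates 1 and 2, and 6 to 7 when single arrays were left out. With probes averaged the count was again 6, but 4 were higher and 2 lower, with bbc3 in place of mdm2. At 0.5x against control (3), it was 1 without control replicates 1 and 2, within scan day 2 and with the deposited matrix, and 1 to 5 without single arrays (1 without control replicate 1 or 2, 5 without control replicate 4). At 1x against 0.5x (2), it was 1 with slide as a block, 0 in limma within either scan day and with the matrix (3, 5 and 1 at an unadjusted p under 0.05 within day 1, within day 2 and with the matrix), and 1 to 3 without single arrays (1 without 1x replicate 3 or 0.5x replicate 2 or 4, 3 without 0.5x replicate 1). With the matrix, 0 of 36346 probes passed in limma at 1x against 0.5x, so no member could pass there. The deviations of same-numbered arrays correlated at -0.0456 to 0.199 (1x and control), -0.0891 to 0.278 (0.5x and control) and -0.224 to 0.493 (1x and 0.5x). In the same order, 2 of 4, 1 of 4 and 3 of 5 arrays matched their own number best. Arrays also share slides and scan days, so these values cannot settle whether wells were paired. With the replicate block 6, 2 and 2 members passed (12858, 4000 and 1823 of 38807 probes), gadd45aa being lost at 0.5x (limma adjusted p = 0.0513).

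The values that changed sign had not passed the test. At 1x against 0.5x gadd45aa gave 0.014 with normexp, 0.070 with probes averaged and 0.0089 with the matrix (-0.12 to 0.065 without single arrays), ccng1 gave 0.067 with quantile normalization, 0.28 with probes averaged and 0.026 with the matrix, mdm2 -0.019 with probes averaged, and gadd45bb 0.040 with the matrix (-0.25 to 0.0083 without single arrays). At 0.5x against control sesn1 gave 0.0014 within day 2 and 0.049 with probes averaged (-0.086 to 0.033 without single arrays). For mdm4 the value was, at 1x, -0.15 within day 1 and -0.16 with probes averaged (-0.020 to 0.11 without single arrays), and at 0.5x 0.057 within day 2, 0.013 with the matrix and 0.055 without control replicates 1 and 2. For gadd45gb.1, at -0.37 (1x) and -0.41 (0.5x) in all arrays, it was 0.047 (1x) and 0.065 (0.5x) within day 2, and 0.087 and 0.047 without those controls. For gadd45ga at 1x it was 0.019 with probes averaged. The cause was not tested.

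Over all probes, 11148, 3589 and 1581 passed, in the order of comparisons above; without single arrays these ran from 5939 to 12996, 1111 to 9606 and 709 to 4626, and under the other settings from 1573 to 18067, 606 to 11656 and 0 to 3241. Of the calls at 1x against control 34.4% were higher, with 19.8% under normexp and 45.2% under quantile normalization. The median log2 fold change of all probes there was -0.09, beside -0.20 under normexp and -0.02 under quantile normalization. At 0.5x against control 38.2% were higher, with 54.8% under quantile normalization, and at 1x against 0.5x 42.6%, with 30.5% under normexp.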
